A study of Mus musculus with 8 samples.

Results

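Scd2, a mouse stearoyl-CoA desaturase gene, was followed across the m6A-eCLIP libraries of the alpha cell line αTC1-6. Its members were the sites of the deposited site table that lie inside the RefSeq span of Scd2 on chromosome 19 of mm10, from position 44293676 to position 44306864 (13189 bases, gene ID 20250). This gave 21 of the 33774 sites in the table. The gene was chosen by its IP reads, since one of its sites was named among those with fewer reads in the knockdown IP libraries in earlier results of these data. For that reason the IP change and everything that contains it are given as a description, without a test. The Input libraries were not used in that choice, but they carry the same replicate numbers as the IP libraries. Deviations of same-numbered libraries correlated, so the choice may also have favoured lower Input reads in M14KD. That was not tested. The level of IP over Input within a genotype is another contrast, but it shares the IP libraries with the choice, so a difference between the genotypes in it is a description too. The choice favoured high IP reads in SCR and low IP reads in M14KD. Calls of a higher level in SCR or a lower level in M14KD, with their p-values, are therefore read as descriptions.

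Stearoyl-CoA desaturases are enzymes of the endoplasmic reticulum that place a double bond at the delta-9 position of saturated fatty acyl-CoAs, turning stearoyl-CoA into oleoyl-CoA and palmitoyl-CoA into palmitoleoyl-CoA. Electrons reach them from NADH through cytochrome b5 and its reductase, and the monounsaturated products enter phospholipids, triglycerides and cholesterol esters. Scd genes are classical targets of the transcription factors SREBP-1c and LXR. Methylation of adenosine inside messenger RNA (m6A) is written by the Mettl3-Mettl14 enzyme, and its loss or gain can alter how long an RNA lasts and how it is translated.

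αTC1-6 is an immortalized mouse pancreatic alpha cell line, so all samples are one cell line and no animal stands behind them. Cells had received a scramble siRNA (SCR, replicates 1 and 2) or an siRNA against Mettl14 (M14KD, replicates 3 and 4). Each replicate gave an Input library of RNA before selection and an IP library of RNA crosslinked to an anti-m6A antibody, 8 libraries in 4 groups of 2. Whether the replicates were grown separately is not stated in the labels, and the p-values thus describe the spread among these libraries, which may be technical.

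Summed counts over all sites were 3438530 to 3637740 in Input and 10207383 to 10918559 in IP, and Scd2 took between 0.0615% and 0.116% of a library. Mettl14, summed over its 2 sites, had 64 and 44 Input counts in SCR against 32 and 22 in M14KD. That is 51.2% of the SCR level in CPM, where each count is scaled by the total of its library over all sites. The Input log2 fold change of Mettl14 was -0.96 (SE 0.27) and was not called over all genes (edgeR adjusted p = 0.26). Of 13 alpha cell markers, 11 had a site. Their summed level was 81000 and 83401 CPM in SCR Input and 92969 and 93265 CPM in M14KD Input, so it moved with the groups, and its part in the Scd2 results was not tested. None of 7 beta cell markers and none of 3 delta and PP cell markers had a site. Among 10 non-endocrine markers Sox9 alone had one, at no more than 1.74 CPM in Input.

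Scd2 lies in a cluster of desaturase genes on chromosome 19, between Scd3 (44203288 to 44244016) and Scd4 (44333326 to 44346743), with Scd1 (44394450 to 44407709) beyond. The table held 0 sites in Scd1, in Scd3 and in Scd4, against 21 in Scd2, so Scd2 was the 1 stearoyl-CoA desaturase that could be followed. The nearest sites outside the Scd2 span were in Cwf19l1, 183316 bases before it, and in Hif1an, 264435 bases after it. The median named gene had 3 sites, and 114 of 6531 genes (1.75%) had at least as many as Scd2. Counts at an Scd2 site could include reads that match another Scd gene equally well, since the handling of such reads is not given in the sources used here.

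A microRNA gene, Mir5114, is annotated inside Scd2 on the + strand, at chr19:44303171-44303231 (GRCm38.p6, the assembly of mm10). Its RefSeq sequences are shown because this hairpin fills part of the 177 bases between the pair of sites with the highest IP counts in Scd2. The hairpin is written 5′ to 3′ with the mature microRNA in capitals, and the mature microRNA with its seed (bases 2 to 8) in capitals.
Mir5114 hairpin: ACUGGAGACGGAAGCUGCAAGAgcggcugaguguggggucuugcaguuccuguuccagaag
mmu-miR-5114: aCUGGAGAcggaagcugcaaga
No site of the table fell inside these 61 bases. The nearest were at position 44303164, 7 bases before the hairpin, and at position 44303260, 29 bases after it.

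The Scd2 sites were gathered toward the end of the gene. One lone site, at position 44295300 and 1624 bases from the start of the span, had 0 to 4 reads in every library and was removed by the filter on low counts. The other 20 sites began 9435 bases from the start and ended 413 bases before the end of the span, within 3341 bases, and lay in 4 groups parted by gaps of over 500 bases. The first group had 7 sites (44303111 to 44303341), the second 6 (44304999 to 44305103), the third 4 (44305694 to 44305811) and the last 3 (44306396 to 44306451). Exons were not used here, so the groups are given by position alone. Many neighbours were a few bases apart and may count the same reads, which makes them repeat views of one stretch of RNA and not independent measurements.

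Input reads were spread nearly evenly over these 20 sites, while IP reads were not. In the Input libraries each site held 3.94% to 7.12% of the gene's reads, and the highest site had 1.55 to 1.79 times the reads of the lowest. In the IP libraries a site held 2.2% to 11.98% of the gene's reads, and the highest site had 4.68 to 5.45 times the reads of the lowest. The first group, which spans Mir5114, held 49.4% and 49.7% of Scd2 IP reads in SCR and 47.6% and 48.4% in M14KD. The same 7 sites held 31.4% to 33.1% of Scd2 Input reads. The third group stood the other way, with 24.2% to 24.9% of Input reads and 13.8% to 15.2% of IP reads.

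Position 44303341 had the highest summed IP count. It had 187 and 193 Input reads in SCR, 167 and 157 in M14KD, 1210 and 987 IP reads in SCR, and 799 and 688 in M14KD. Both M14KD libraries lay below both SCR libraries in each kind of library. Position 44303164, on the near side of Mir5114, had 205 and 154 Input reads in SCR, 136 and 146 in M14KD, 1152 and 988 IP reads in SCR, and 792 and 675 in M14KD. The 2 sites together held 21.7% to 23.6% of the gene's IP reads in the 4 IP libraries and 9.32% to 9.86% of its Input reads. At 44303155, a site 9 bases before 44303164 and named after its values were seen, Input levels were 55.3 and 44.0 CPM in SCR, close to the 56.7 and 42.3 CPM of its neighbour. IP levels at these neighbours were 42.3 and 35.3 CPM against 105.5 and 93.4 CPM, so the neighbours were alike in Input and unlike in IP.

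**Figure D1:**
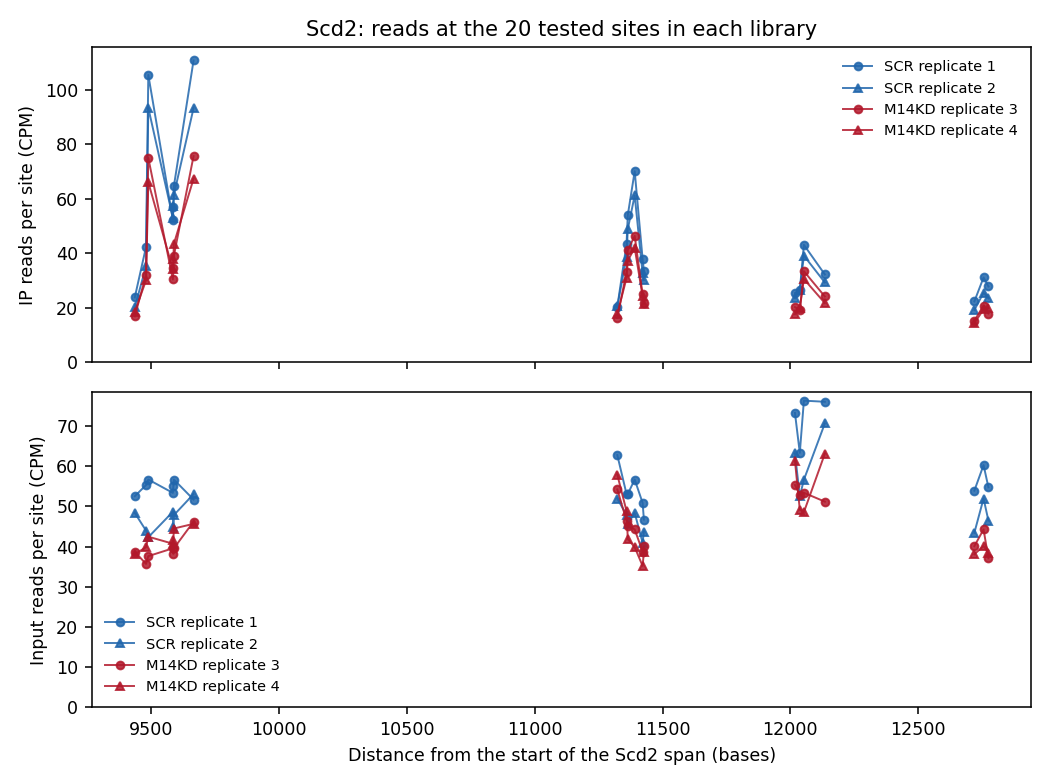
Reads at the 20 tested Scd2 sites in CPM (y axis; upper panel IP, lower panel Input) against distance from the start of the gene span in bases (x axis); each line is one library, SCR in blue and M14KD in red, broken between the 4 groups of sites. IP levels peak within the groups, highest at 9488 and 9665 bases in the SCR libraries, while Input levels are flatter.

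The first comparison asked how strongly the antibody selected Scd2 RNA in control and in knockdown cells. Summed over its 21 sites, Scd2 had fewer reads in IP than in Input relative to other genes, in both genotypes. The IP to Input ratio of CPM was 0.796 and 0.839 in SCR replicates 1 and 2 and 0.727 and 0.688 in M14KD replicates 3 and 4, so every ratio was below 1. The genotypes did not overlap, a difference that contains the IP change on which the gene was chosen. With TMM scaling over the 8 libraries, log2 IP over Input was -0.99 (SE 0.08, edgeR quasi-likelihood test, adjusted p = 2.47e-08) in SCR and -1.19 (SE 0.08, adjusted p = 3.17e-09) in M14KD, n = 2 libraries of each kind. The choice of the gene favoured low IP reads in M14KD, so the M14KD p-value is read as a description. In SCR 34.7% of the 6379 genes tested were called lower, and in M14KD 35.6%, so a call in this direction was common. Of all genes, 19.1% had a lower value than Scd2 in SCR and 14.9% in M14KD.

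These sizes depended on the scaling and on which sites were summed. With column totals in place of TMM factors the median of all genes moved from 0.04 to 0.75 in SCR, and Scd2 stood at -0.27 (SE 0.08) in SCR and -0.48 (SE 0.08) in M14KD. Measured from the all-gene median, Scd2 stood at -1.02 in SCR under both scalings. With 1 site kept per 100 bases, the one with the highest count over the 8 libraries, the values were -0.45 (SE 0.09) in SCR and -0.61 (SE 0.09) in M14KD. The IP libraries were deeper than the Input libraries, so this rule favoured sites high in IP. Positions 44303164 and 44303341 were among those kept.

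Single sites covered a wide range of IP over Input. In SCR, 18 of 20 tested sites were called lower, where 33.4% of all sites were, and 2 were called higher, where 34% were. The 2 higher sites lay on opposite sides of Mir5114, at 44303164 (0.29, SE 0.12, edgeR adjusted p = 0.0293) and 44303341 (0.25, SE 0.11, adjusted p = 0.0494). Their IP to Input ratios of CPM were 1.86 and 2.21 at 44303164 and 2.14 and 1.76 at 44303341 in SCR replicates 1 and 2. The 3 sites between the hairpin and 44303341 were called lower with TMM scaling, from -0.67 at 44303260 to -0.44 at 44303264. The adjusted p at 44303341 stood just inside the threshold. With median-ratio factors or with DESeq2 none of the 20 was called higher and 18 were called lower, and with column totals 4 were called higher and 13 lower. The shares of all sites above belong to TMM scaling. Shares under the other settings are not given, so these counts show the dependence on scaling and nothing particular to Scd2. Those 4 included 44303264 (0.27, edgeR adjusted p = 0.0292) and 44305067 (0.32, adjusted p = 0.0113), both called lower with TMM scaling. The median of all sites stood at 0.77 with column totals. The count of sites called higher also changed when any 1 of the 4 replicates was left out.

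In M14KD, 18 of 20 sites were again called lower and none higher, where 33.1% and 33.8% of all sites were called lower and higher. With column totals, 2 were called higher and 13 lower, and the median of all sites stood at 0.76. The share of all sites called with column totals is not given. At 44303164 the M14KD value was 0.10 (edgeR adjusted p = 0.492), with CPM ratios of 1.99 and 1.56. At 44303341 it was -0.08 (adjusted p = 0.568), with CPM ratios of 1.64 and 1.48. The change of IP over Input between the genotypes was -0.19 (SE 0.17) at 44303164 and -0.33 (SE 0.16) at 44303341. Neither change was called, so a site called in SCR and not in M14KD is not read as a difference between them.

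The lowest IP over Input in SCR was at 44304999, the first site of the second group. It had 227 and 189 Input reads and 222 and 217 IP reads in SCR, a log2 IP over Input of -2.20 (SE 0.12, edgeR adjusted p = 1.97e-16). In M14KD it had 196 and 199 Input reads and 172 and 182 IP reads, and the value was -2.43. The first tested site, 44303111, had 190 and 176 Input reads and 260 and 213 IP reads in SCR, and stood at -1.91 (SE 0.13), although it lies 53 bases from 44303164. The last site, 44306451, had 198 and 169 Input reads and 304 and 248 IP reads in SCR, and stood at -1.69 (SE 0.13). By group, the median site stood at -0.51 in the first group, -1.05 in the second, -1.91 in the third and -1.70 in the last.

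**Figure D2:**
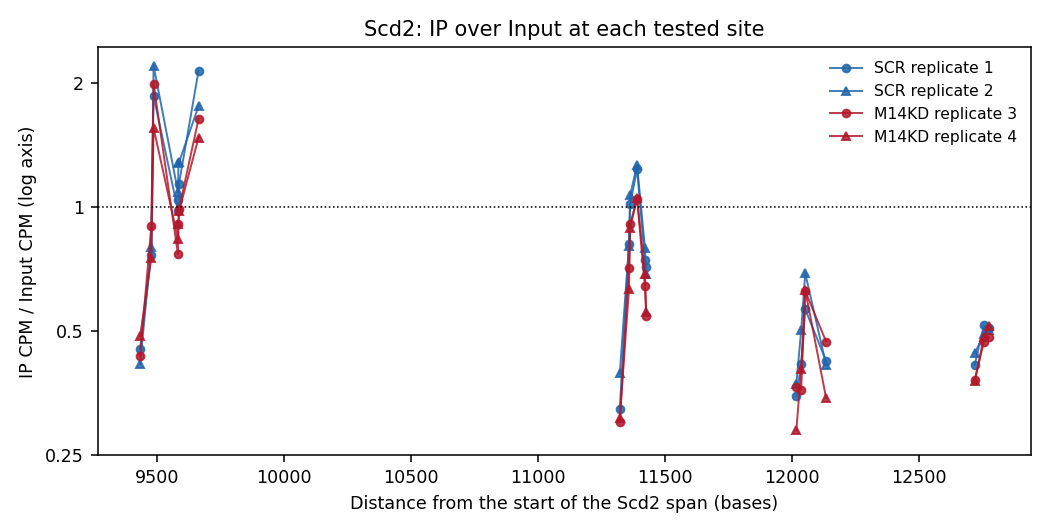
IP CPM divided by Input CPM of the same replicate (y axis, log scale) at the 20 tested Scd2 sites against distance from the start of the gene span in bases (x axis), SCR replicates 1 and 2 in blue and M14KD replicates 3 and 4 in red. The ratio lies above 1 at 6 and 7 sites in the SCR replicates and at 3 sites in each M14KD replicate, and its highest values, 2.14 and 2.21 in SCR, stand at 9665 and 9488 bases, on opposite sides of Mir5114.

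The second comparison asked whether Scd2 RNA itself differed after Mettl14 knockdown, from the Input libraries. These share their replicate numbers with the IP libraries on which the gene was chosen, so they are not fully independent of that choice. In SCR the 21 sites together had 4204 and 3611 Input reads, and in M14KD 3177 and 3074. These are levels of 1162 and 993 CPM against 879 and 894 CPM. Both M14KD libraries lay below both SCR libraries, with means of 1077.5 ± 120.04 and 886 ± 10.6 CPM (SD, n = 2), so M14KD held 82.3% of the SCR level. The log2 fold change was -0.28 (SE 0.08), and it did not pass over all genes (edgeR unadjusted p = 0.00469, adjusted p = 0.265). Of 5826 genes 0% were called in Input by edgeR, 594 had an unadjusted p under 0.05, and 11.6% had a lower value than Scd2. Without SCR replicate 1, the library with the highest level, the value was -0.17 (SE 0.09), and without SCR replicate 2 it was -0.38 (SE 0.09). Fewer cells with Scd2 RNA and less Scd2 RNA per cell cannot be told apart in these bulk libraries.

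All 20 tested sites had an Input log2 fold change below 0, from -0.40 to -0.02 with a median of -0.30, beside a median of 0.00 over 30147 sites. None was called by edgeR, beside 0.0232% of all sites called lower; 11 had an unadjusted p under 0.05, as had 2620 of the 30147 sites tested, the lowest adjusted p was 0.381, and DESeq2 called none. At 16 of the 20 sites both M14KD libraries lay below both SCR libraries in CPM, a pattern that 20.2% of all tested sites showed. The lowest value was at 44306451, the last site, with 198 and 169 reads in SCR and 134 and 132 in M14KD (-0.40, SE 0.14, edgeR adjusted p = 0.381). The value closest to 0 was at 44304999, with 227 and 189 reads in SCR and 196 and 199 in M14KD, where the groups overlapped (-0.02, SE 0.13, adjusted p = 0.986). Because neighbouring sites may count the same reads, these 20 values cannot be taken as separate measurements.

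**Figure D3:**
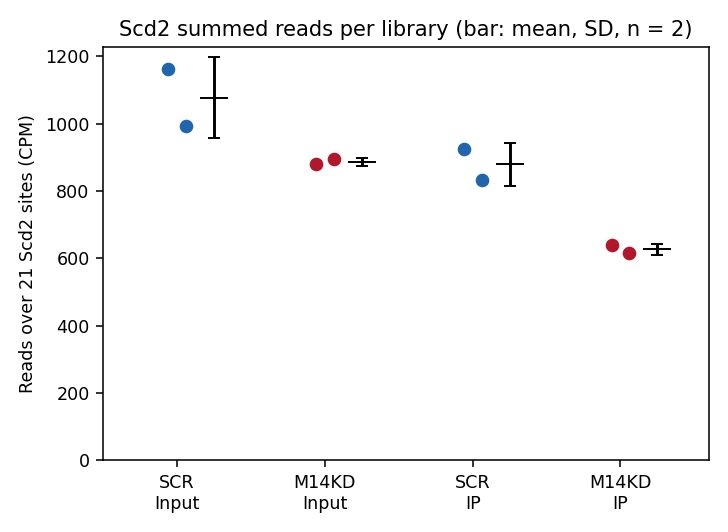
Reads summed over the 21 Scd2 sites in CPM (y axis) in each library (points, SCR blue and M14KD red) of the 4 groups (x axis), with the group mean and SD of 2 libraries beside them (black). M14KD libraries lie below SCR libraries in Input (879 and 894 against 1162 and 993 CPM) and in IP (639 and 615 against 925 and 833 CPM).

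The IP change is the contrast on which Scd2 was chosen and is given as a description. The gene had 10098 and 8810 IP reads in SCR against 6743 and 6277 in M14KD. In CPM these are 925 and 833 against 639 and 615. The means were 879 ± 64.8 and 627 ± 16.9 CPM (SD, n = 2), 71.3% of the SCR level in M14KD, and the groups did not overlap. The fitted log2 fold change was -0.47 (SE 0.07), and 1.61% of 6381 genes had a lower value. Nothing is read from calls on this contrast, and the share of all genes called is given for the main fit alone. At the level of gene sums edgeR called 0% of these genes, Scd2 included, while DESeq2 did call Scd2. The edgeR fit called it as well with all 8 libraries in 1 model.

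All 20 tested sites lay below 0 in IP, from -0.69 to -0.24 with a median of -0.44. At all 20, both M14KD libraries lay below both SCR libraries, which held at 25.2% of all tested sites. Of the 20, 8 were called lower, beside 0.375% of all 33348 sites tested. The gene was chosen on this contrast, so nothing is read from that share or from the lack of overlap. The 8 were 5 sites of the first group, from 44303164 to 44303341, and 3 of the second, at 44305067, 44305098 and 44305103, and no site of the third and last groups was among them; sites beyond the fixed rule were named after their values were seen. That count depended on the libraries used. It changed when any 1 replicate was left out, which leaves a group with a single library. With 1 site per 100 bases 3 of 5 sites were called lower. The share of all sites called is given for the main fit alone, so nothing is read from these changes.

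The largest fall in IP was at 44303260, 29 bases past Mir5114, with 572 and 561 reads in SCR and 321 and 348 in M14KD (-0.69, SE 0.10). Together with 44303262 (-0.64, SE 0.10) and 44303264 (-0.59, SE 0.10), which lie 2 and 4 bases further on and may count the same reads, it had the 3 lowest values. These 3 sites held 18.8% and 20.6% of Scd2 IP reads in SCR and 16.3% and 18.8% in M14KD. The value closest to 0 was at 44304999, with 222 and 217 reads in SCR and 172 and 182 in M14KD (-0.24, SE 0.12). Over the 20 sites, the IP and Input log2 fold changes had a Pearson r of 0.27 and a Spearman rho of 0.09, as a description of sites that share the 4 replicates and may share reads. Without the 3 sites, an alternative chosen after the data were seen, the IP value of the sum was -0.43 (SE 0.08).

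**Figure D4:**
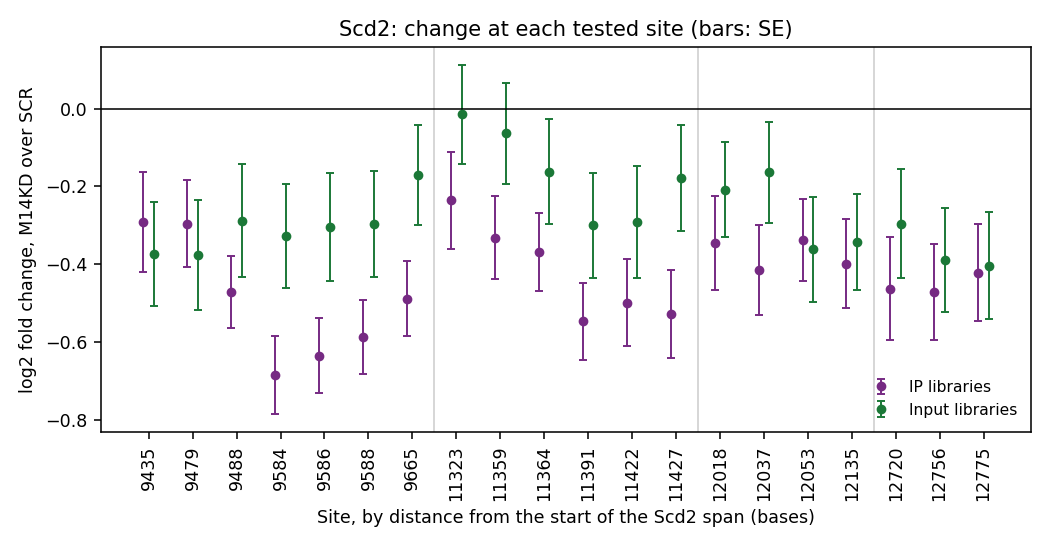
Log2 fold change of M14KD over SCR (y axis) at each of the 20 tested Scd2 sites, ordered and labelled by distance from the start of the gene span in bases (x axis), in IP (purple) and Input (green), with SE as bars and grey lines between the 4 groups of sites. All points lie below 0, the IP points between -0.69 and -0.24 and the Input points between -0.40 and -0.02.

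The change of IP over Input takes the Input change off the IP change. For the sum it was -0.20 (SE 0.11), and 0% of the 6379 genes tested were called in this contrast. Over the 20 sites it ran from -0.37 at 44303260 (SE 0.16) to 0.07 at 44303111 (SE 0.19), with 17 values below 0 and 3 above. None of the 20 was called, and 0% of all sites were. By group the median was -0.30 in the first, -0.24 in the second, -0.10 in the third and -0.09 in the last, with single-site standard errors of 0.16 to 0.19. Since the IP libraries enter this contrast, it is a description as well.

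The genes of the pathway were read from 8 lists of 127 genes in all, Scd2 among them, of which 69 had a site. In Input, 67 were tested, 41 had values below 0 and 26 above, with a median of -0.08 beside 0.00 for all genes, and none was called by edgeR or DESeq2. An unadjusted edgeR p under 0.05 was found for 5 of them, all with values below 0, against 594 of 5826 genes (10.2%) over the whole fit. They included Scd2, Fads1 and Fasn. In IP, 47 of 68 tested members lay below 0 and 21 above, with a median of -0.07 beside 0.01 for all genes. None was called by edgeR, and Scd2 was the 1 member called by DESeq2. Scd2 was chosen on this contrast, so nothing is read from that call.

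Among the partners of desaturation, Fads1, the delta-5 desaturase of polyunsaturated fatty acids, had an Input log2 fold change of -0.22 (SE 0.10) and an IP value of -0.29 (SE 0.08). Cyb5a and Cyb5b, cytochrome b5 proteins that carry electrons, had Input values of 0.12 (SE 0.14) and 0.02 (SE 0.15). Degs1, which desaturates dihydroceramide, had 0.17 (SE 0.08). Fads2 had no site. The 4 tested members had an Input median of 0.07, and none passed over all genes.

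In fatty acid synthesis, which supplies the saturated substrates, Fasn, the fatty acid synthase, had Input counts that gave -0.40 (SE 0.12) and an IP value of -0.36 (SE 0.11). Acaca, the acetyl-CoA carboxylase that makes malonyl-CoA, stood at -0.41 (SE 0.21) in Input and -0.05 (SE 0.13) in IP. Mcat, the mitochondrial malonyl transferase, had -0.16 (SE 0.16) in Input, and Mid1ip1, an activator of acetyl-CoA carboxylase, had 0.16 (SE 0.09). The median of the 4 members tested in Input was -0.28. Acly had no site. None of these values passed over all genes.

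Among the elongation enzymes 3 of 4 tested members lay above 0 in Input. Elovl6, which extends palmitoyl-CoA to the stearoyl-CoA that Scd enzymes use, had 0.10 (SE 0.13) in Input and 0.24 (SE 0.14) in IP. Elovl7 had 0.49 (SE 0.32), Hsd17b12, the ketoacyl-CoA reductase of elongation, 0.17 (SE 0.21), and Elovl1 -0.02 (SE 0.10) in Input. The list's median was 0.14 over 4 tested genes, and none passed. Elovl5 had no site.

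Of the regulators, 7 of 10 tested lay below 0 in Input, with a median of -0.09. Srebf1, which encodes SREBP-1, had no site. Srebf2, the SREBP that drives cholesterol synthesis, had -0.03 (SE 0.14) in Input and -0.31 (SE 0.12) in IP. Insig1, which holds SREBP in the endoplasmic reticulum, had 0.04 (SE 0.16), and Insig2 had 0.16 (SE 0.11). Ppard, a nuclear receptor for fatty acids, had -0.23 (SE 0.20), and none of the regulators passed over all genes.

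Cholesterol synthesis and uptake had 14 of 19 tested genes below 0 in Input and a median of -0.11. Lss, which makes lanosterol (-0.37, SE 0.41), and Dhcr7 (-0.32, SE 0.18), which makes cholesterol from 7-dehydrocholesterol, were lowest. Sc5d, a sterol desaturase, had 0.27 (SE 0.17). In the list of fatty acid activation, glycerolipid synthesis and storage 11 of 17 lay below 0, from Dgat2, which makes triglycerides (-0.35, SE 0.25), and Agpat4 (-0.20, SE 0.18) to Chka, choline kinase (0.22, SE 0.16), and Gpam, the mitochondrial glycerol phosphate acyltransferase (0.51, SE 0.44). In fatty acid oxidation 3 of 8 lay below 0, with Cpt2 at -0.11 (SE 0.10) and Acadvl at -0.08 (SE 0.34) lowest, and Acadm, medium-chain acyl-CoA dehydrogenase (0.15, SE 0.26), and Eci1, an enoyl-CoA isomerase (0.46, SE 0.25), highest. None of the members of these 3 lists passed over all genes.

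**Figure D5:**
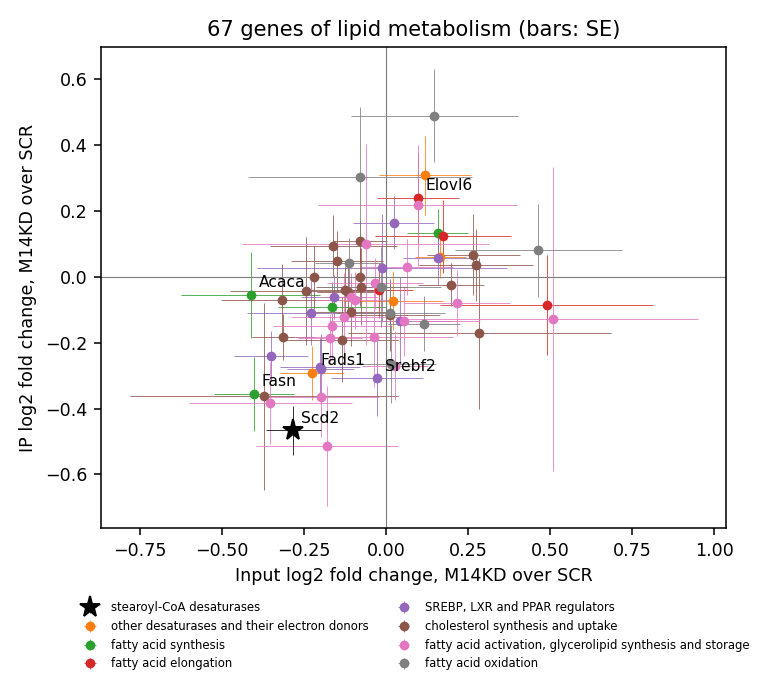
Input (x axis) and IP (y axis) log2 fold changes of M14KD over SCR for the 67 lipid genes tested in both, coloured by list, with SE as bars; Scd2 is the black star at -0.28 and -0.47. In Input 41 of the 67 lie below 0, and none of them was called in either contrast by edgeR.

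The genes whose pattern over the 8 libraries was most like that of Scd2 were sought among 896 genes with at least 10 sites, by the Euclidean distance of log2 CPM centred on each gene. The nearest was Got1, cytosolic aspartate aminotransferase, at a distance of 0.386, beside a median of 2.29 over the genes compared. Next came Sars, a seryl-tRNA synthetase (0.425), Stt3b, a catalytic subunit of oligosaccharyltransferase (0.432), Flna, the actin crosslinker filamin A (0.492), and Igsf8, an immunoglobulin superfamily membrane protein (0.498). The distance takes in IP and Input libraries alike, so the choice itself set their IP over Input near that of Scd2 (-0.99 in SCR), from -1.11 in Flna to -0.82 in Stt3b. The choice likewise drew their IP and Input changes toward those of Scd2, so these are given as a description. Their IP log2 fold changes ran from -0.40 (SE 0.09) in Flna to -0.06 (SE 0.07) in Igsf8, beside -0.47 in Scd2. Their Input log2 fold changes ran from -0.29 (SE 0.11) in Flna to -0.11 (SE 0.08) in Igsf8, and none was called in Input by edgeR.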

How the data were processed

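Reads were processed before deposit with tools that include UMI-tools, cutadapt and STAR on mm10, per the submitters' processing notes; their versions, and how sites were called and reads counted (window, strand), are not given in the sources here. The deposited values are whole-number read counts per site and library, not normalized, per the file headers. A site's position is its end coordinate: the base there was adenine at 35.3% of 674 sites inside RefSeq start-site windows, against 20.2% and 20.5% at the bases beside it. Sites were named by RefSeq gene spans, and counts were also summed per gene.

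The main test was the quasi-likelihood F-test of edgeR 4.0.16 in R 4.3.3, after filterByExpr and TMM scaling, with p-values adjusted by Benjamini-Hochberg over all sites or genes and called under 0.05. The IP libraries of M14KD and SCR were compared, and likewise the Input libraries; IP over Input in each genotype and its change came from 1 model of the 8 libraries. A standard error (SE) is the size of the log2 fold change divided by the square root of its F value. The method was tested on simulated data. The members and gene lists were chosen with earlier results of these data known. Named sites were those with the highest IP count, the highest and lowest IP over Input in SCR, the lowest and highest changes in IP and Input, and the first and last tested; named genes were, per list, the 2 highest and 2 lowest in Input, and a set of core lipid genes. Deviations of same-numbered IP and Input libraries from their group means correlated at 0.28 (SCR) and 0.18 (M14KD) over 6042 genes. The numbers in the titles were taken to pair them, which 2 replicates per genotype cannot settle. The main fits did not use this pairing, and the replicate block did. Replicates differed beyond sampling noise (chi-square over degrees of freedom 1.34 to 2.54). Alternatives were DESeq2 1.42.0, other scalings and filters, 1 site per 100 bases, all 8 libraries in 1 model, a replicate block and leaving out each replicate. Counting precision is limited by site depth: the Input sites of Scd2 had 121 to 276 reads. Results of some genes that these rules name are not reported here.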

Additional observations from a re-analysis of the deposited data

How the results depend on the processing

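Of the 115 alternative values, 4 moved, all of them counts of Scd2 sites called that went beyond 1.5 times. The other counts stayed within 1.5 times, with sites called higher and lower counted together. The other values kept their direction, and the tested ones their side of the threshold. Sites called higher for IP over Input in SCR were less stable when counted alone. There were 2 as reported, 0 with DESeq2 or median-ratio factors, and 4 with column totals. The IP change of the sum was read as a value without a test. It was -0.47 as reported and lay between -0.55 and -0.39 under every alternative. Its call depended on the setting: edgeR did not call the sum as reported, while DESeq2 and edgeR with all 8 libraries in 1 model did. The gene was chosen on this contrast, so nothing is read from these calls. The share of all genes called is given for the main fit alone. For IP over Input in SCR, keeping 1 site per 100 bases left 5 sites called, out of 5 tested in place of 20. For the IP change it left 3, and leaving out 1 replicate gave 0 to 11 called sites against 8. Taking the replicate number as a block changed no call: log2 IP over Input of the sum was -0.98 (SE 0.04) in SCR and -1.19 (SE 0.04) in M14KD, its change was -0.20 (SE 0.06), and the sites called were 20 in SCR and 0 for the change. IP values of the sum without 1 replicate ran from -0.55 to -0.39 and Input values from -0.38 to -0.17. Input depth limits what can be seen: the single-site standard error in Input was 0.12 to 0.14, and sums may count a read at more than one site.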
